A study of Rattus norvegicus with 20 samples.

Results

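The effect of phototherapy on the hippocampus of jaundiced Gunn rat pups was examined by comparing 5 light-treated with 5 untreated pups of the same genotype, 10 of the 20 libraries of the series, over every expressed gene. Gunn rats lack a working Ugt1a1, the liver enzyme that conjugates bilirubin. All 10 pups were homozygous for this defect (jj) and jaundiced, so the untreated group also carried the high bilirubin and the comparison was between light and no light within jaundice. The defect is present in the germline and throughout life. Treated jj pups received intermittent LED light from postnatal day 4 to day 6, for 12 h in total, with 3 h on and 3 h off by day, and untreated jj pups received none. Heterozygous, non-jaundiced pups (Nj, also written Jj in the labels) served in 5 treated and 5 untreated animals as the other genotype. All pups were taken at postnatal day 6, and polyA RNA of 1 hippocampal lobe of each was sequenced. Pups are numbered 1 to 5 within their group below, and the numbers link no pup to another.

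Phototherapy converts bilirubin in the skin into isomers that can be excreted without conjugation, and it is the standard care of neonatal jaundice. Unconjugated bilirubin that enters the brain can injure neurons, and the hippocampus is among the affected regions. In the first weeks of life the rat hippocampus is still being built: granule neurons of the dentate gyrus are born, axons are guided by secreted and membrane-bound cues, Cajal-Retzius cells secrete reelin, and synapses and inhibitory interneurons mature.

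The jj libraries held 16.9 M to 22.1 M counts (M, mega) in untreated and 19.3 M to 25.7 M in treated pups. Of 32883 genes listed, 15272 passed the filter on low counts and were tested. Of 22 marker genes of hippocampal subfields, 18 were measured. With no other tissue in the series, their values are not a test of tissue identity. Of these 18, 9 were positive in treated against untreated pups, 0 passed the test described below, 3 were higher and 1 lower at an unadjusted p under 0.05, and the median log2 fold change was 0.00, with the mean log2 CPM of the list overlapping between the groups. The dentate granule cell factor Prox1 stood at 121 ± 12.3 counts per M (CPM, mean ± SD, n = 5) in untreated and 104 ± 12.6 in treated pups, and Zbtb20 at 76.7 ± 10.9 and 65.7 ± 12.5 CPM. Both means were lower with light, while members of the list ran from -0.58 to 0.62 in log2 fold change. Before the results, some features of the libraries need stating. Ttr, which encodes transthyretin and is made in very large amounts by the choroid plexus next to the hippocampus, passed 1000 CPM in untreated pup 3 and in treated pups 2, 4 and 5. Transcripts of the Y chromosome were present in 2 pups of each jj group. All untreated jj titles carry one prefix and all treated titles another. What the prefix stands for is not stated, so it cannot be told apart from light. No 2 libraries of a group agreed within sampling noise (lowest chi-square per degree of freedom 3.42), so none was taken as a repeat of another. Each was counted once, but whether the pups of a group are otherwise related is not stated.

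Light-treated jj pups differed from untreated jj pups in few genes and by small amounts. Of 15272 genes, 25 passed an adjusted p of 0.05 (edgeR, quasi-likelihood F-test, Benjamini-Hochberg over all genes), which is 0.164%. Of these, 6 rose (0.0393%) and 19 fell (0.124%). The genes that fell included the matrix protein tenascin-C, cell surface proteoglycan and guidance genes, reelin and a subunit of the replicative helicase. Those that rose included the nicotinic receptor modulator Lynx1, an alpha-tubulin, and the RNA editing enzyme Adarb1. The median absolute log2 fold change of the 25 was 0.41, with a range of 0.20 to 0.61. Only Gpc2 and Ano3 moved by more than 1.5-fold and 0 genes moved by more than 2-fold. The median of all genes was -0.00 and 49.8% of them were positive. For 23 of the 25 the CPM ranges of the groups did not overlap. Such separation was seen in 194 tested genes with the treated pups higher (1.27%) and 258 with the treated pups lower (1.69%). At an unadjusted p under 0.05 there were 861 genes higher (5.64%) and 1117 lower (7.31%), 1978 in all, where the p alone would give 764. At a wider adjusted p of 0.1, 60 genes lay higher and 88 lower.

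The number of genes past the threshold depended on single libraries. It was 0 without untreated pup 4, or without treated pup 2, 3 or 5, where 1723, 1689, 1611 and 1582 genes had an unadjusted p under 0.05 in edgeR. Without treated pup 4 it was 5, without untreated pup 1 it was 16, without untreated pup 3 it was 39 and without treated pup 1 it was 43. When the 10 jj libraries were fitted without the Nj libraries it was 3, namely Lynx1 (adjusted p = 0.000262), Gpc2 (0.0193) and Adamts7 (0.0444). DESeq2 called 271 genes, 121 higher and 150 lower, among them all 25. The direction of the 25 was the same in all of these fits, which reuse libraries in which the 25 were chosen. None of the 25 passed in all 10 fits that left out 1 jj library. The most, 6 of 10, was reached by Tnc, Adamts7, Lynx1 and Cachd1.

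**Figure D1:**
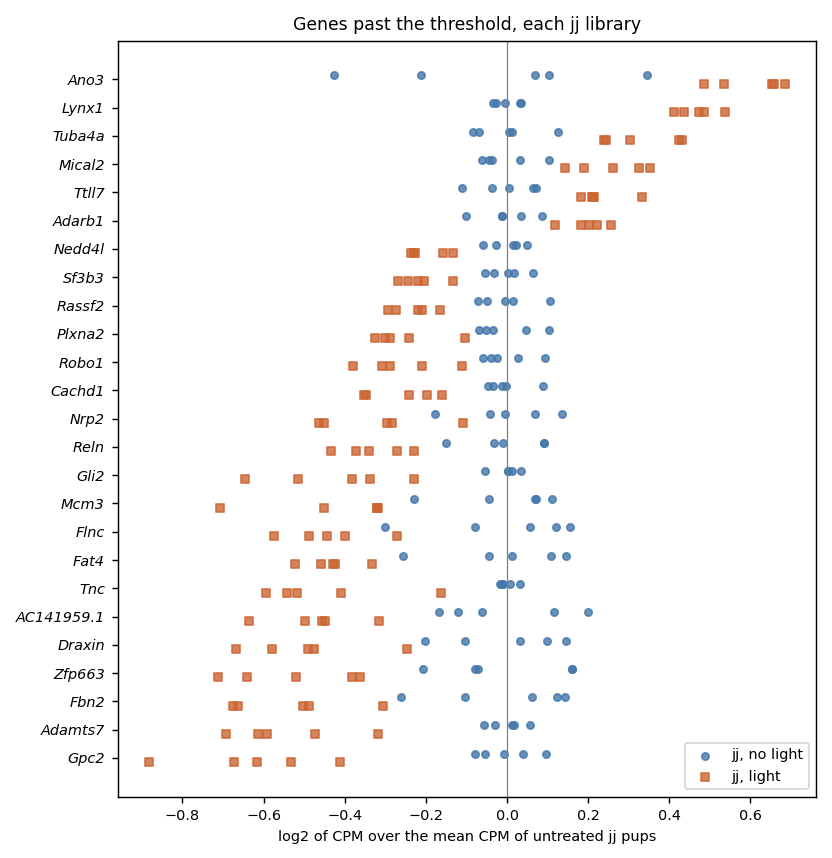
Each row is 1 of the 25 genes past the threshold, and the horizontal axis is log2 of CPM over the mean CPM of untreated jj pups, with circles for the 5 untreated and squares for the 5 treated pups. Circles and squares are apart in every row but those of Flnc and Nrp2, and the 19 genes that fell have their squares left of the line at 0.

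Matrix and cell surface genes were among the falls with the lowest p. Tnc, tenascin-C, a matrix glycoprotein that surrounds progenitors and growing axons in the developing brain, stood at 468, 475, 467, 483 and 469 CPM in untreated pups 1 to 5 and at 422, 355, 324, 313 and 330 CPM in treated pups 1 to 5. The untreated pups lay close together, and every treated pup was below them, treated pup 1 by the least. The log2 fold change was -0.44 (SE 0.07, edgeR adjusted p = 0.0141), and over the fits that left out 1 library it lay between -0.50 and -0.39. Gpc2, glypican-2, a heparan sulfate proteoglycan carried by developing neurons, had 37.4, 35.6, 38.6, 36.2 and 40.2 CPM without light and 28.3, 23.6, 24.5, 26.0 and 20.4 CPM with light. This was the largest fall of the 19, at a log2 fold change of -0.61 (SE 0.11, edgeR adjusted p = 0.0242). Fbn2, fibrillin-2, a microfibril protein of embryonic and early postnatal tissue, had 19.02, 22.3, 22.6, 21.3 and 17.1 CPM without and 12.8, 12.9, 14.4, 16.5 and 14.6 CPM with light. Untreated pup 5 and treated pup 4 were close, with 17.1 and 16.5 CPM. The log2 fold change of Fbn2 was -0.52 (SE 0.10, edgeR adjusted p = 0.0342), and it was -0.37 with the meninges level in the model (adjusted p = 0.123).

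Adamts7, a secreted metalloprotease, fell from 20.5, 20.9, 21.5, 22.1 and 21.5 CPM to 17.1, 14.1, 13.2, 13.9 and 15.3 CPM. Its log2 fold change was -0.53 (SE 0.08, edgeR adjusted p = 0.0141), with every treated pup below every untreated one. Fat4, an atypical cadherin of planar cell polarity, had 180, 217, 208, 238 and 232 CPM without light and 171, 149, 156, 160 and 160 CPM with light (log2 fold change -0.43, SE 0.08, edgeR adjusted p = 0.0228). Its ranges were separated by a gap between untreated pup 1 and treated pup 1 that was smaller than the spread among the untreated pups. Of the 28 measured genes in a list of brain matrix components, chosen with earlier results of these data known, 3 fell (Tnc, Gpc2 and Fbn2). In that list 0 rose and 25 did not pass. Over all tested genes 0.124% fell. The list's median log2 fold change was -0.10, with 9 of 28 positive. The meninges level in the model moved the median to -0.05, leaving out untreated pup 3 to -0.06, and leaving out treated pup 3 to -0.07. The large chondroitin sulfate proteoglycans Vcan (206 ± 19.4 to 176 ± 19.4 CPM, log2 fold change -0.23, edgeR adjusted p = 0.173) and Ncan (1236 ± 60.9 to 1098 ± 70.3 CPM, -0.17, 0.245) did not pass. Hapln4, a link protein of mature perineuronal nets, did not pass either and had the opposite sign (12.6 ± 1.36 to 17.5 ± 2.40 CPM, log2 fold change 0.47, edgeR adjusted p = 0.148).

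By number, axon guidance held the most falls of any list, 4 of 42, against 3 of 28 in the matrix list. The gene lists were chosen with earlier results of these data known, so shares of fallen members describe the lists and do not test them. Of 42 measured genes, 4 fell, 0 rose and 38 did not pass, and 13 had an unadjusted p under 0.05 and a lower level. Over all tested genes 0.124% fell and 7.31% were lower at that unadjusted p. The median log2 fold change was -0.09 with 10 of 42 positive, and it was -0.04 with the choroid plexus and meninges lists as covariates. The mean log2 CPM of the list lay between 6.26 and 6.34 in the untreated and between 6.16 and 6.24 in the treated pups, so the groups did not overlap. In summed CPM of the list they did overlap, with treated pup 1 at 5694 and untreated pups 1 and 3 at 5637 and 5505. Draxin, a secreted repellent of growing axons, had 44.1, 47.2, 51.9, 54.3 and 56.1 CPM without light and 42.8, 36.5, 36.1, 34.0 and 31.9 CPM with light. Untreated pup 1 and treated pup 1 were nearest to each other, and the log2 fold change was -0.48 (SE 0.08, edgeR adjusted p = 0.0199). Robo1, a receptor for the Slit repellents, had 168, 170, 176, 184 and 166 CPM without light and 160, 142, 133, 150 and 140 CPM with light (log2 fold change -0.26, SE 0.05, edgeR adjusted p = 0.0316). Plxna2, a plexin receptor for semaphorins, had 340, 348, 344, 383 and 369 CPM without and 332, 302, 292, 285 and 290 CPM with light (-0.25, SE 0.05, edgeR adjusted p = 0.0459). In both receptor genes treated pup 1 lay just under the lowest untreated pup. Nrp2, a neuropilin that binds class 3 semaphorins together with plexins, had 274, 302, 310, 326 and 341 CPM without and 288, 255, 225, 253 and 227 CPM with light (-0.31, SE 0.07, edgeR adjusted p = 0.0478). Its groups overlapped, since treated pup 1 was above untreated pup 1. Efnb1, an ephrin ligand (39.3 ± 2.70 to 30.4 ± 1.87 CPM, log2 fold change -0.37, edgeR adjusted p = 0.0597), and the netrin receptor gene Dcc (82.0 ± 4.82 to 67.5 ± 8.56 CPM, -0.28, 0.124) did not pass.

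Genes of immature neurons and of dividing cells lay on the lower side in treated pups. Of 23 measured genes of immature neurons, 2 fell (Draxin and Gpc2), 0 rose and 21 did not pass. Draxin is also counted in the axon guidance list and Gpc2 in the matrix list. This list too was chosen with earlier results of these data known. The median log2 fold change was -0.19, with 4 of 23 positive, and 13 of the 23 had an unadjusted p under 0.05 and a lower level. Over all tested genes 0.124% fell and 7.31% were lower at that unadjusted p. The list's mean log2 CPM was 7.71 to 7.89 in untreated and 7.54 to 7.68 in treated pups, without overlap. Its summed CPM did overlap, with treated pup 1 at 17558 and untreated pup 3 at 16696. With the Ttr level in the model the median was -0.12. Members that did not pass included Crmp1, a collapsin response mediator of growth cones (1797 ± 47.8 to 1568 ± 72.5 CPM, log2 fold change -0.20, edgeR adjusted p = 0.0896), Tubb2b, a beta-tubulin of young neurons (2363 ± 106 to 2071 ± 101 CPM, -0.19, 0.145), and the transcription factor gene Sox11 (57.0 ± 6.78 to 45.6 ± 2.70 CPM, -0.32, 0.128). In bulk RNA, fewer cells of a type and less RNA of a gene per cell cannot be told apart.

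Mcm3, a subunit of the helicase that opens DNA for replication, was the one member of the list of dividing cells to pass. Its values were 12.3, 11.3, 12.2, 12.6 and 9.96 CPM without light and 9.36, 9.34, 7.14, 9.35 and 8.54 CPM with light. Untreated pup 5 was the lowest of its group and lay near the upper treated pups. The log2 fold change was -0.41 (SE 0.08, edgeR adjusted p = 0.0459). Of the list's 34 measured genes 1 fell, 0 rose and 33 did not pass, the median log2 fold change was -0.13 and 5 were positive. Over all tested genes 0.124% fell. The mean log2 CPM of the list overlapped between groups, at 4.02 to 4.20 without and 3.88 to 4.09 with light. The proliferation marker Mki67 (36.2 ± 2.83 to 29.9 ± 2.24 CPM, log2 fold change -0.27, edgeR adjusted p = 0.120) and Cdk4, a kinase of the G1 phase (109 ± 6.73 to 95.7 ± 4.63 CPM, -0.18, 0.0903), did not pass. Gli2, a transcription factor of hedgehog signalling, which sustains progenitors, had 10.5, 10.1, 10.7, 10.5 and 10.6 CPM without light and 8.93, 8.04, 6.69, 8.27 and 7.32 CPM with light (log2 fold change -0.41, SE 0.08, edgeR adjusted p = 0.0473). The untreated pups lay close together and the treated pups were spread below them. A list of neural progenitor genes had 0 of 16 past the threshold, a median of -0.10 and 3 positive.

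The promoters of Gpc2, Mcm3 and Tuba4a are shown as examples of fallen and risen genes and were chosen after their values and motifs were seen. They come from RefSeq (GRCr8), which is not stated to be the build of the counts, run 5′ to 3′ on the minus strand of the genome, on which all 3 genes lie, and span 250 bases before to 50 after the start. Capitals mark the hits of 5 motifs, each searched on both strands, so that a hit may appear as its reverse complement. The GC box was searched as GGGCGG. The CCAAT box was searched by the letters of its name, and the TATA box as TATAAA. The E-box, bound by bHLH factors, was searched as CACGTG. The E2F site, known from promoters of replication genes, was searched as TTTGGCGC, with TTTCCCGC and TTTCGCGC as its other forms. No hits overlap in these windows.
Gpc2, chr12:22397773-22398072: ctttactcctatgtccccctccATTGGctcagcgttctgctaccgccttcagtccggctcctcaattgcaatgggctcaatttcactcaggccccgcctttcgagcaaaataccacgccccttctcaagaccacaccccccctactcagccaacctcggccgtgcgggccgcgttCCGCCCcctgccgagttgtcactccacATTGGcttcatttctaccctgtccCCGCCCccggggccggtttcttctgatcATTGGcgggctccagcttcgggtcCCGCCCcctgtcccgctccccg
Mcm3, chr9:30733697-30733996: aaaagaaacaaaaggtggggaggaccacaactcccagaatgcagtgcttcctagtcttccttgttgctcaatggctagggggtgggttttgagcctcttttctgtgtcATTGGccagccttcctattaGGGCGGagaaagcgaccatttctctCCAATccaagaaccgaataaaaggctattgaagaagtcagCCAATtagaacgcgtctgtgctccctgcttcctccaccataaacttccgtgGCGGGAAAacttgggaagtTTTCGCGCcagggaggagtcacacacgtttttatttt
Tuba4a, chr9:84162535-84162834: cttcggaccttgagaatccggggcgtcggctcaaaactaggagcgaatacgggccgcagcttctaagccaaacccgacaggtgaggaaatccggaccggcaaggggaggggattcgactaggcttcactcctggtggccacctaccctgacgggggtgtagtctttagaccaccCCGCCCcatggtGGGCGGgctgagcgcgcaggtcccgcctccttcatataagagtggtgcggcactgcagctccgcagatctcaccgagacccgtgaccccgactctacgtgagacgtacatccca
The Gpc2 window held 3 GC boxes and 3 CCAAT boxes, the Mcm3 window 1 GC box, 3 CCAAT boxes and 2 E2F sites, and the Tuba4a window 2 GC boxes. Of the 25 genes, 22 matched a promoter, by Ensembl identifier or, failing that, by symbol. GC boxes were in 63.6% of these 22 windows, in 61.7% of the windows of 10842 tested genes and in 34.9% of all 27457 windows. CCAAT boxes were in 31.8%, 37.2% and 37.7%, and E2F sites in 4.55%, 3.30% and 1.83%, the 4.55% being Mcm3 alone. E-boxes were in 13.6%, 9.09% and 6.65%, and TATA boxes in 13.6%, 6.72% and 14.3%. A match is a description of letters and not of a bound site.

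Reln, which encodes reelin, the secreted glycoprotein that positions migrating neurons and is made at this age by Cajal-Retzius cells and later by interneurons, fell. Untreated pups had 570, 628, 674, 619 and 674 CPM and treated pups 540, 489, 469, 525 and 500 CPM. All treated pups were below untreated pup 1, the lowest of its group, and the log2 fold change was -0.33 (SE 0.07, edgeR adjusted p = 0.0418). It was the only one of 18 measured genes of the interneuron list to pass. The list was evenly divided, with 9 of 18 positive. Gad2, a GABA-synthesising enzyme (205 ± 26.4 to 257 ± 24.7 CPM, log2 fold change 0.32, edgeR adjusted p = 0.0896), did not pass. Pvalb, the calcium buffer of fast-spiking interneurons, had 0.447, 1.00, 0.979, 0.685 and 0.415 CPM without and 1.10, 1.501, 1.68, 1.49 and 1.41 CPM with light. The groups did not overlap, but each value rests on 9 to 33 counts, and the log2 fold change of 1.03 (SE 0.26) did not pass (edgeR adjusted p = 0.0896).

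Among the 6 genes that rose, Lynx1 was the most uniform within its groups. It encodes a membrane-anchored prototoxin that binds nicotinic acetylcholine receptors and restrains cortical plasticity in the adult. Its values were 116, 116, 113, 111 and 111 CPM without light and 158, 165, 154, 151 and 159 CPM with light. The gap between the groups was wider than the spread within either, with a log2 fold change of 0.47 (SE 0.08, edgeR adjusted p = 0.0141). Ano3, a member of the anoctamin membrane protein family, had 17.1, 20.7, 12.1, 17.5 and 14.1 CPM without light and 25.7, 23.6, 26.2, 22.8 and 25.6 CPM with light. The untreated pups were more scattered than the treated ones. The log2 fold change was 0.61 (SE 0.12, edgeR adjusted p = 0.0418).

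Tuba4a and Ttll7 both belong to the microtubule system. Tuba4a, an alpha-tubulin isoform, had 208, 226, 209, 198 and 196 CPM without light and 256, 245, 246, 280 and 278 CPM with light (log2 fold change 0.33, SE 0.06, edgeR adjusted p = 0.0199). Ttll7, which adds glutamate chains to tubulin, had 46.2, 49.6, 43.9, 49.9 and 47.6 CPM without and 53.9, 55.0, 59.8, 54.9 and 54.9 CPM with light (0.23, SE 0.05, edgeR adjusted p = 0.0493). In both genes the lowest treated pup was above the highest untreated pup. Mical2, a monooxygenase that oxidises actin, rose by 0.26 on the log2 scale (SE 0.05, edgeR adjusted p = 0.0418), from 111 to 125 CPM without light to 128 to 148 CPM with light. Adarb1, also called ADAR2, which edits the glutamate receptor transcript that sets calcium permeability, rose by 0.20 (SE 0.04, edgeR adjusted p = 0.0493), from 105 to 119 CPM to 122 to 134 CPM. The ranges of Mical2 and of Adarb1 were separated by less than the spread of the treated pups.

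The other genes that fell do not share a listed function. Cachd1, a membrane protein related to calcium channel subunits, went from 80.9 to 88.8 CPM without light to 65.3 to 74.6 CPM with light (log2 fold change -0.26, edgeR adjusted p = 0.0216). Sf3b3, a subunit of the U2 spliceosome complex, had 119 to 129 CPM and then 102 to 112 CPM (-0.21, edgeR adjusted p = 0.0342). The ranges of both genes were apart. Rassf2, a Ras-association protein (-0.23, edgeR adjusted p = 0.0342), and Nedd4l, a ubiquitin ligase of ion channels (-0.20, edgeR adjusted p = 0.0418), fell by a similar amount, from means of 101 ± 4.88 and 155 ± 4.62 CPM to 86.0 ± 3.06 and 135 ± 4.51 CPM. Flnc, filamin C, an actin cross-linker, had 34.2, 39.2, 40.1, 37.5 and 29.3 CPM without light and 26.5, 25.7, 24.2, 29.9 and 27.4 CPM with light (-0.43, edgeR adjusted p = 0.0418). Its groups overlapped at untreated pup 5 and treated pup 4, and with the meninges level in the model its log2 fold change was -0.30 (adjusted p = 0.150). The zinc finger gene Zfp663 (8.91 ± 1.00 to 6.23 ± 0.66 CPM, -0.52, edgeR adjusted p = 0.0459) and the unnamed gene AC141959.1 (13.3 ± 1.48 to 9.65 ± 0.76 CPM, -0.47, 0.0418) were at low levels.

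The 10 genes with the next lowest p had adjusted p from 0.0503 to 0.0590 in edgeR. They included Apcdd1, an inhibitor of Wnt signalling (163 ± 5.47 to 145 ± 3.41 CPM, log2 fold change -0.17), Pfkp, a phosphofructokinase of glycolysis (178 ± 13.4 to 222 ± 10.8 CPM, 0.32), the immediate early gene Egr4 (5.52 ± 0.83 to 8.04 ± 0.89 CPM, 0.54), and Igfbp5, an insulin-like growth factor binding protein (506 ± 28.9 to 426 ± 27.3 CPM, -0.25). The step from inside to outside the threshold was small, since Adarb1 and Ttll7 stood at 0.0493 and Apcdd1 at 0.0503.

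Of 40 gene lists, 5 had a member past the threshold and 35 had none. Together 9 of the 25 genes were in a list. The scores (mean log2 CPM) of 2 lists lay higher and of 2 lower in the treated pups without overlap. In summed CPM the axon guidance, immature neuron and calcium-binding lists among these did overlap. Respiratory chain genes of the nucleus were nearly all on the positive side, 46 of 47, but by little, with a median log2 fold change of 0.10 against -0.00 for all genes. Their mean log2 CPM was 6.86 to 6.93 without light and 6.98 to 7.01 with light. Of the 47, 14 had an unadjusted p under 0.05 and a higher level, against 5.64% of all tested genes. None passed, Sdhd, a succinate dehydrogenase subunit, having the lowest p (116 ± 3.83 to 129 ± 3.63 CPM, log2 fold change 0.16, edgeR adjusted p = 0.0903). With the meninges level in the model the median of this list was 0.06. Calcium-binding protein genes had 14 of 18 positive and a median of 0.13, and their mean log2 CPM was 6.84 to 7.06 without and 7.11 to 7.20 with light. Their summed CPM overlapped, with untreated pup 5 at 6196 and treated pup 4 at 6125. Vsnl1, a neuronal calcium sensor, was the nearest to passing (180 ± 30.3 to 249 ± 34.2 CPM, log2 fold change 0.46, edgeR adjusted p = 0.0692).

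Genes of excitatory synapses had 28 of 36 positive, a median of 0.05 (0.09 with the Ttr level in the model) and 0 past the threshold. Grin2c, an NMDA receptor subunit that appears late in development, had 17.4 ± 3.53 CPM without and 26.6 ± 2.44 CPM with light (log2 fold change 0.62, edgeR adjusted p = 0.10). Chromatin regulators had 3 of 27 positive and a median of -0.10. Of the 27, 13 had an unadjusted p under 0.05 and a lower level, against 7.31% of all tested genes. The maintenance methyltransferase gene Dnmt1 (100 ± 3.06 to 85.0 ± 6.28 CPM, -0.24, edgeR adjusted p = 0.0653) and the chromatin remodeller gene Chd8 (151 ± 5.37 to 134 ± 7.43 CPM, -0.18, 0.0896) did not pass. The 13 transcripts of the mitochondrial genome were all positive with a median of 0.15, which was 0.31 with the Ttr level in the model, 0.07 without libraries above 1000 CPM of Ttr, 0.25 without untreated pup 1 and 0.03 without untreated pup 3, whose mean log2 CPM of these transcripts was 9.22 against 10.28 to 10.49 in the other untreated pups. Ribosomal protein genes had 5 of 46 positive and a median of -0.07, which was -0.04 without treated pup 5. Their extremes, Rps9 (2.44), Rps6 (2.40) and Rplp2 (-2.36), have many processed copies in the genome, among which reads could be divided, and they are uncertain.

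**Figure D2:**
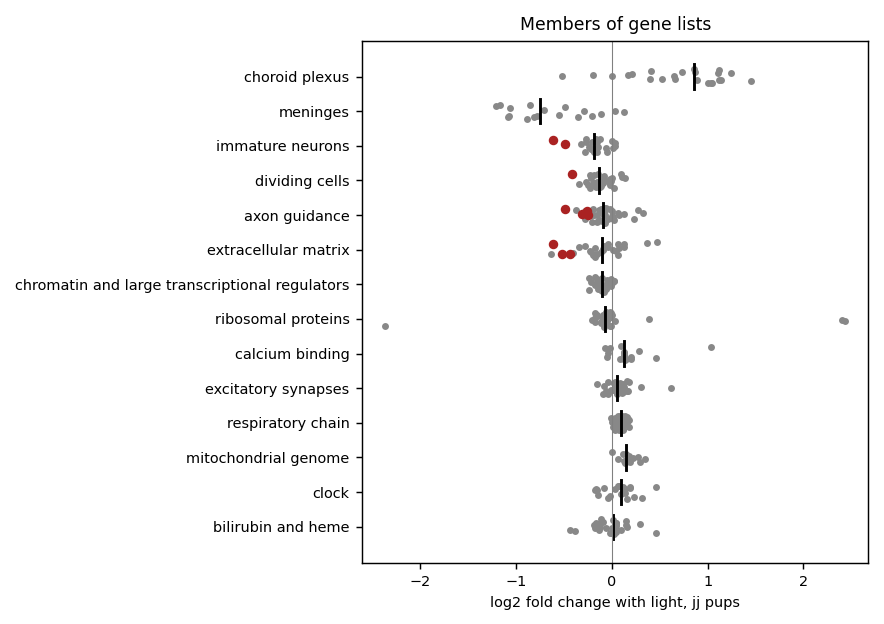
Each dot is a measured member of the named gene list, placed by its log2 fold change between treated and untreated jj pups. Large red dots passed the threshold and black bars mark the list medians, which run from -0.75 in the meninges list to 0.86 in the choroid plexus list and lie between -0.19 and 0.15 in the others.

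Bilirubin and heme genes did not move as a group. Of 28 measured, 0 passed, 15 were positive and the median was 0.01. Hmox1, the inducible heme oxygenase that starts bilirubin formation, had 9.49, 6.84, 6.75, 7.70 and 8.20 CPM without and 7.80, 6.39, 5.82, 7.35 and 7.18 CPM with light (log2 fold change -0.17, SE 0.11, edgeR adjusted p = 0.521). Its constitutive relative Hmox2 had 46.5, 43.1, 49.0, 46.3 and 48.4 CPM without and 53.6, 51.2, 49.7, 53.4 and 50.9 CPM with light (0.15, SE 0.05, 0.180). The ranges of Hmox1 overlapped and those of Hmox2 were barely apart. The biliverdin reductases Blvra (18.5 ± 0.64 to 19.02 ± 1.41 CPM, log2 fold change 0.04, edgeR adjusted p = 0.819) and Blvrb (21.8 ± 2.25 to 20.2 ± 0.55 CPM, -0.11, 0.498) overlapped between groups.

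Clock genes had 14 of 21 positive, a median of 0.10 and 0 past the threshold. Nr1d2, a REV-ERB repressor of the clock (43.0 ± 4.55 to 53.6 ± 3.78 CPM, log2 fold change 0.32, edgeR adjusted p = 0.0896), was the nearest to passing. Dbp (23.8 ± 2.50 to 27.2 ± 2.50 CPM, 0.19, 0.326) and Per1 (35.1 ± 2.97 to 31.5 ± 2.76 CPM, -0.15, 0.420) overlapped between groups. The median was 0.06 without untreated pup 5, 0.05 without treated pup 5 and 0.04 with the Ttr level in the model. Klf9, a transcription factor that responds to thyroid hormone and glucocorticoids, had 39.6, 44.3, 44.9, 45.4 and 45.7 CPM without and 49.8, 48.5, 57.1, 56.4 and 58.4 CPM with light. Its groups did not overlap, and the log2 fold change of 0.30 (SE 0.07) did not pass (edgeR adjusted p = 0.0653). The glucocorticoid target Fkbp5 (39.2 ± 2.86 to 36.1 ± 3.49 CPM, -0.12, 0.508) and the cold-responsive Cirbp (72.9 ± 3.15 to 68.4 ± 4.87 CPM, -0.09, 0.462) and Rbm3 (228 ± 32.9 to 233 ± 16.5 CPM, 0.03, 0.911) overlapped.

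Glial marker genes gave no gene past the threshold. The microglia list had 13 of 21 positive and a median of 0.10, which was 0.00 without libraries above 1000 CPM of Ttr, 0.06 without untreated pup 3 and 0.05 without untreated pup 5, with its purinergic receptor gene P2ry12 at 8.35 ± 0.55 and 9.82 ± 0.93 CPM (log2 fold change 0.24, edgeR adjusted p = 0.297) and Aif1 at 10.7 ± 1.41 and 11.5 ± 1.13 CPM (0.10, 0.742). Members of the microglia list ran from -0.52 to 0.39 in log2 fold change. The astrocyte list had 12 of 20 positive, a median of 0.07 and members from -1.12 to 0.62. Its glutamate transporter gene Slc1a2 was the nearest to passing (119 ± 8.49 to 146 ± 8.37 CPM, 0.30, edgeR adjusted p = 0.0590), and Gfap, the intermediate filament of astrocytes, stood at 275 ± 36.1 and 312 ± 22.4 CPM (0.18, 0.479). The myelin list had 9 of 15 positive and members from -0.65 to 0.84. Its gene Mbp stood at 70.8 ± 11.0 and 82.9 ± 5.03 CPM (0.23, edgeR adjusted p = 0.542), and the neurotrophin gene Bdnf at 19.7 ± 1.79 and 21.5 ± 1.93 CPM (0.13, 0.566). Calb1, a calcium buffer of granule neurons, stood at 49.3 ± 8.35 and 60.1 ± 5.69 CPM (0.29, 0.419). The ranges of the 2 groups overlapped for all genes of these but Slc1a2.

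Transcripts of neighbouring tissue varied widely among the jj pups, and no measure of it passed a test between the groups after adjustment. Ttr stood at 21.8, 159, 9662, 51.4 and 6.73 CPM in untreated pups 1 to 5 and at 59.1, 7667, 247, 5390 and 6558 CPM in treated pups 1 to 5. One untreated and 3 treated pups were thus high, and the ranges overlapped. The difference in mean log2 CPM was 3.68 (exact permutation test, two-sided p = 0.151, 0.302 adjusted over 4 such measures, smallest p possible 0.00794), and over fits that leave out 1 jj pup the p ran from 0.0397 (without untreated pup 3, difference 5.31) to 0.302, with 0.0794 the next lowest. Of 23 measured genes of the choroid plexus list, 21 were positive and 0 passed, with a median of 0.86. That median was 2.47 without untreated pup 3, 0.45 without treated pup 2 and -0.20 with the Ttr level in the model. The summed CPM of the list ran from 359 to 12240 without and from 459 to 9750 with light (difference in mean log2 1.30, exact permutation p = 0.460). The meninges list went the other way, with 2 of 18 positive and a median of -0.75. In edgeR 10 of its 18 genes had an unadjusted p under 0.05 and a lower level, against 7.31% of all tested genes. Its summed CPM was 3889, 4109, 3516, 3929 and 2386 in untreated and 2494, 1926, 2069, 3364 and 2601 in treated pups. Every treated pup lay below untreated pups 1 to 4, while untreated pup 5 lay among the treated pups (difference -0.52, exact permutation p = 0.0476, 0.190 adjusted over the 4 measures). Its transporter gene Slc6a13 had 46.2 ± 14.9 and 21.9 ± 8.71 CPM, and Col1a1, a fibroblast collagen, 220 ± 66.3 and 134 ± 42.4 CPM. Neither passed (edgeR adjusted p = 0.200 and 0.231). The pericyte list had 2 of 12 positive. The ependyma list had a difference of 0.19 (exact permutation p = 0.405).

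**Figure D3:**
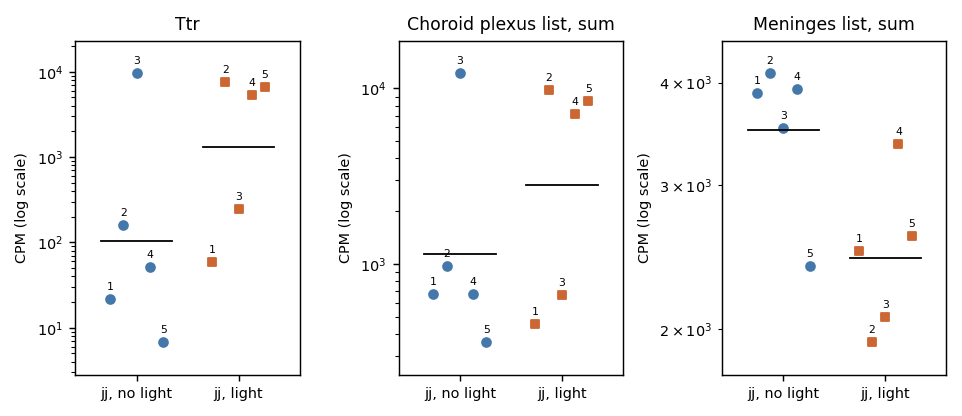
CPM on log axes in each jj pup, numbered, for Ttr, the summed choroid plexus list and the summed meninges list, with bars at the mean of log2 values. Untreated pup 3 and treated pups 2, 4 and 5 stand between 5390 and 9662 CPM of Ttr. In the meninges sum, which ran from 1926 to 4109 CPM, every treated pup lies below 4 of 5 untreated pups.

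With this tissue taken into account the 25 genes kept their direction with a somewhat smaller median change, and the number past the threshold moved widely. With log2 CPM of Ttr as a covariate all 25 kept their direction, the median absolute log2 fold change was 0.37, and Tnc (-0.39, adjusted p = 0.0483) and Lynx1 (0.49, 0.0483) passed, 2 genes in all. In that edgeR fit 2316 genes had an unadjusted p under 0.05, against 1978 without a covariate. With the mean of the choroid plexus list as covariate 88 genes passed, 38 higher and 50 lower, among them all 25, with a median of 0.38 over the 25. There 2434 genes had an unadjusted p under 0.05 in edgeR. Without the libraries above 1000 CPM of Ttr, which leaves 4 untreated and 2 treated jj pups, the median was 0.35 and 0 genes passed (1327 at an unadjusted p under 0.05, 25 of the 25 among them). In the 6 jj pups poor in Ttr fitted alone, 6 genes passed. Gpc2 (-0.50, adjusted p = 0.0431) and Lynx1 (0.45, 0.0017) belong to the 25, and 24 of the 25 had an unadjusted p under 0.05 there. The other 4, named after their values were seen, were Dynlt3, Txnip, AC134224.2 and AC134224.3, which are not among the 25. With the meninges level as a covariate only Tnc passed (-0.48, adjusted p = 0.0377), 1610 genes had an unadjusted p under 0.05 in edgeR, and the median was 0.34. With both lists as covariates 0 passed (1518 at an unadjusted p under 0.05) and the median was 0.34. The covariate fits with the meninges level and the fit of Ttr-poor pups were chosen after the data were seen. In every one of these fits all 25 genes had the direction of the fit without covariates. These fits reuse libraries in which the 25 were chosen for their change, which favours a kept direction and a low unadjusted p.

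**Figure D4:**
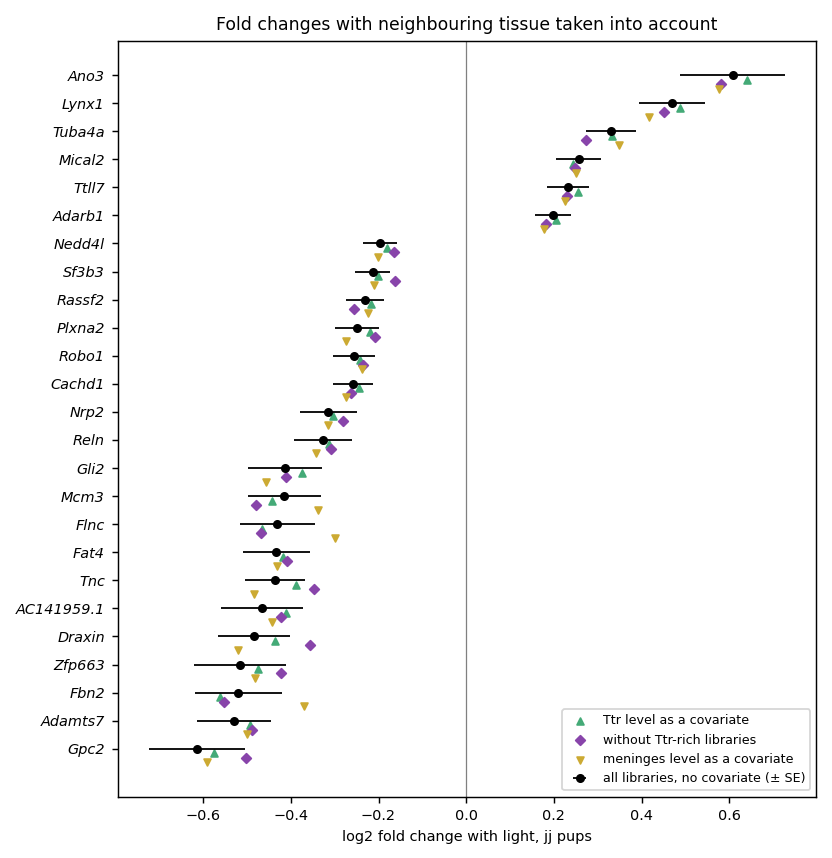
Log2 fold change of the 25 genes between treated and untreated jj pups in the fit of all libraries (black, with SE), with Ttr as a covariate (triangles), without the Ttr-rich libraries (diamonds), and with the meninges level as a covariate (inverted triangles). No marker crosses 0, and Fbn2 and Flnc have their smallest changes, -0.37 and -0.30, with the meninges level in the model.

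The same treatment in non-jaundiced pups allowed the light effect to be set beside that in jj pups, in libraries that are not shared. Both treated groups carry the same title prefix, and no untreated pup of either genotype carries it. A change common to both genotypes therefore cannot be told apart from that prefix either. In Nj pups 611 genes passed (4%). Of the 25 genes of jj pups, 18 also passed in Nj pups, all in the same direction, which is 72.0% of the jj list and 2.95% of the Nj list. All 25 had the same sign in Nj pups, and 589 of the 611 Nj genes (96.4%) had the same sign in jj pups, against 69.9% of all genes. The median absolute log2 fold change of the 25 was 0.41 in jj and 0.30 in Nj pups, and 11 of the 25 had the larger change in Nj pups. The 25 were chosen for passing in jj pups, which favours the larger value there, and the reverse held for the Nj list: its 611 genes had a median of 0.25 in Nj and 0.14 in jj pups, 578 of them with the larger change in Nj pups. Across all genes, which are not independent replicates, Pearson's r of the log2 fold changes was 0.29 and Spearman's rho 0.45. Tnc went from 482 ± 36.3 to 345 ± 28.4 CPM in Nj pups, Gpc2 from 40.4 ± 8.01 to 24.1 ± 2.27, Draxin from 53.9 ± 5.82 to 36.4 ± 2.20 and Reln from 658 ± 74.1 to 501 ± 25.7. Lynx1 went from 110 ± 17.9 to 155 ± 10.8 CPM. For these genes the treated means of both genotypes lay closer together than the treated and untreated means of either.

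The remaining 7 genes passed in jj pups and did not pass in Nj pups. Fat4 was at 199 ± 24.4 and 183 ± 10.9 CPM in untreated and treated Nj pups, Fbn2 at 17.4 ± 1.73 and 16.2 ± 2.13, and Gli2 at 8.53 ± 0.68 and 7.99 ± 0.69. Rassf2 was at 92.8 ± 4.37 and 90.6 ± 4.03 CPM and Zfp663 at 8.98 ± 1.27 and 7.86 ± 0.53. In these 5 the difference of the light effect between genotypes had an unadjusted p under 0.05, of 0.00788 for Fat4, 0.00668 for Fbn2, 0.0140 for Gli2, 0.00451 for Rassf2 and 0.0380 for Zfp663. Plxna2 and Nedd4l were the other 2, with p of 0.0944 and 0.112. None of these differences passed adjustment, and choosing genes that passed in jj and not in Nj pups favours a low p of the difference. Over all genes 0 passed the test of the difference in edgeR (0%, lowest adjusted p 1.00), and DESeq2 also called 0. An unadjusted p under 0.05 in edgeR was seen in 521 genes, where the p alone would give 764. Among the lowest p were those of Tsnaxip1 (log2 fold change 0.53 in jj and -0.74 in Nj pups), the cardiac myosin gene Myh6 (0.18 and -1.13, on 13 to 22 counts in jj pups), Coa6, an assembly factor of cytochrome oxidase (-0.39 and 0.40), and 1 of the 2 genes listed as Anp32a (0.18 and -0.51).

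**Figure D5:**
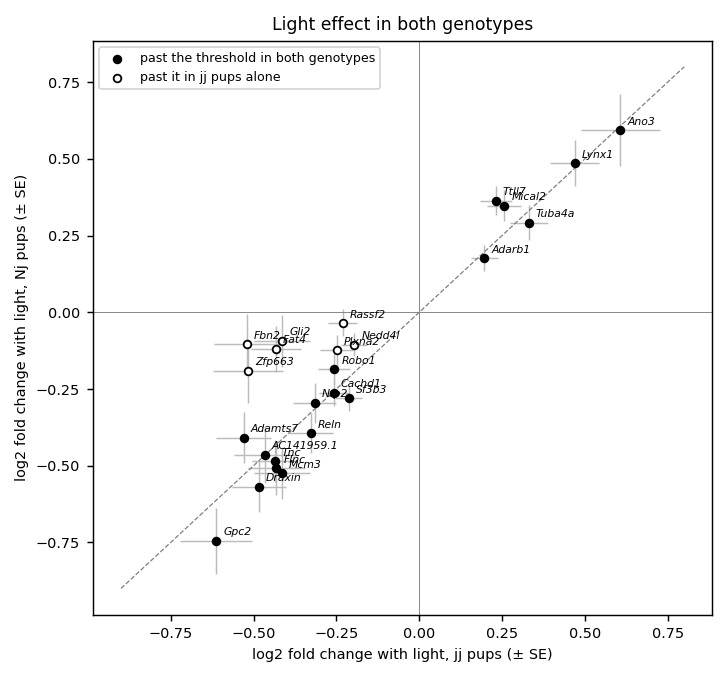
Log2 fold change with light in jj pups (horizontal) and Nj pups (vertical), each with its SE, for the 25 genes past the threshold in jj pups. Filled points (18) also passed in Nj pups, open points (7) did not, and all 25 lie in the quadrants of equal sign, with the dashed line marking equal change.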

How the data were processed

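PolyA RNA of the hippocampus of 20 pups was sequenced, 5 per group. The authors deposited raw, unnormalised read counts of 32883 rat genes under Ensembl identifiers. The submitters' processing notes list FastQC, TopHat2 2.0.13, Subread and edgeR without their roles. They name a mouse build, while the genes are those of the rat. The rat build, the counting options and the use of strand were not given in the sources used here. Overlapping and antisense genes therefore cannot be told apart. The series text speaks of 6 untreated pups per genotype and also of 5, and the 5 per group at hand were used.

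In R 4.3.3 with edgeR 4.0.16 (on limma 3.58.1), filterByExpr by group removed low genes, and TMM-scaled counts were fitted in 1 quasi-likelihood model of all 20 libraries with a mean per group (16 residual degrees of freedom, robust, legacy estimates). Contrasts were tested on both sides at a Benjamini-Hochberg adjusted p of 0.05 over 15272 genes. CPM use TMM-scaled totals, with a prior count of 2 on the log scale. p-values measure the spread between pups within groups. In jj pups each group carries a single title prefix, so they do not cover any spread between prefixes. Neighbouring tissue was tested by exact permutation. DESeq2 1.42.0, other filters and scalings, covariates and leaving out libraries were alternatives. The fits were tested on simulated data.

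Named were the 10 largest rises and falls past the threshold with log2 CPM of at least 1 and ranges that do not overlap, up to 4 called members per list, a fixed set, and the 5 lowest p of the difference between genotypes. A gene that this rule names is not reported here. The other called genes (Cachd1, Sf3b3, Rassf2, Nedd4l, Flnc, AC141959.1), the 10 genes next outside the threshold and the list members that did not pass were added after their values were seen. The comparison and the gene lists were chosen with earlier results of these data known.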

Additional observations from a re-analysis of the deposited data

Results flagged for a closer look

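In 124 checks of a group of 5 pups, 10 found 1 pup further from the rest than Dixon's limit, where chance gives about 5%. Untreated pup 3 was far above its group in Ttr, with 9662 CPM against 6.73 to 159 in the others, and in the summed choroid plexus list, with 12240 CPM against 359 to 975. It was also far below its group in Mat2b (42.1 CPM against 49.4 to 51.7) and in the Anp32a gene ENSRNOG00000058484 (19.1 CPM against 25.8 to 27.9). Untreated pup 5 was low in Gfap (213 CPM against 283 to 306) and untreated pup 1 in Klf9 (39.6 CPM against 44.3 to 45.7). Treated pup 2 was high in Aif1 (13.5 CPM against 10.6 to 11.3) and in Blvrb (21.2 CPM against 19.8 to 20.1). Treated pup 3 was high in Ttll7 (59.8 CPM against 53.9 to 55.0), and treated pup 5 in the Anp32a gene ENSRNOG00000014846 (28.8 CPM against 21.0 to 23.2).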

How the results depend on the processing

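Of 15272 genes, 25 passed in jj pups. The count was 271 with DESeq2, 3 with the compared groups alone, 2 with Ttr and 88 with the choroid plexus list as a covariate, 0 without libraries above 1000 CPM of Ttr, 13 with Y-linked transcripts as a covariate, and, in fits added after seeing the data, 1 with the meninges list, 0 with both lists and 6 in Ttr-poor jj pups alone. It ranged from 0 to 43 when 1 library was left out. It was 25 with size factors of DESeq2, 22 with no count filter, 33 with a mean count of at least 10, 23 with newer estimates and 33 after thinning to equal depth. Of the 25, 6 were higher, against 44.6% of the genes called by DESeq2 and 43.2% of those called with the choroid plexus list as a covariate. The direction of all 25 was the same throughout, in fits that reuse libraries in which the 25 were chosen. In Nj pups 611 passed, 1009 with DESeq2, 112 without libraries above 1000 CPM of Ttr, and 152 to 651 with 1 library left out. The test of the difference between genotypes gave 0, and 1 gene without treated jj pup 1, the other fits giving 0 (range 0 to 1). The Ttr difference of 3.68 ranged from 2.69 to 5.31, the latter without untreated jj pup 3. The cause of these shifts was not tested, except that leaving out libraries leaves fewer samples. Over the named genes and all fits, 1058 values stayed on their side of the threshold, 328 lost it, 50 gained it and 4 had no adjusted p in DESeq2, and no gene past the threshold changed sign. Of genes that did not pass, the values of Rbm3 (0.03, down to -0.04), Blvra (0.04, down to -0.02), Fkbp5 (-0.12, up to 0.03) and Myh6 (0.18, down to -0.10) changed sign in some fits. No paired analysis was possible because the pups carry no number that links animals of different groups.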
